A study of Mus musculus with 8 samples.

Results

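Epiregulin (Ereg), 5 other ligands of the epidermal growth factor (EGF) family (Areg, Hbegf, Tgfa, Btc and Nrg1) and 3 ErbB receptors (Egfr, Erbb2 and Erbb3) were followed in mouse dental papilla cells with floxed or with deleted Bmp2. These 9 genes were taken by name from the 22609 gene symbols of the count tables. They were chosen by the measured counts of Ereg, which increased with culture time in both genotypes, so the time course is described here without a test, and tests were run on genotype. All 9 genes passed the filter on low counts.

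The iBmp2 fx/fx cells carry both floxed alleles of Bmp2 (label "Bmp2 floxed/floxed", written fx/fx from here on), and the iBmp2 ko/ko cells have lost Bmp2 (label "Bmp2 KO", written ko/ko). Both are immortalized lines of dental papilla mesenchyme, grown as cell cultures outside the tooth. Each genotype is a single line, so a difference between genotypes and a difference between lines cannot be told apart. Total RNA of each genotype was sequenced at 6, 24, 48 and 72 h of culture, with 1 library per genotype and time and 8 libraries in all. The labels give 6 h for the earliest time, and the design text of the series names another hour for it. With no replicate at any time, the times served as replicates, and the spread between libraries includes any change with culture time. In these bulk libraries, fewer cells that make a transcript and less of it per cell cannot be told apart.

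The EGF ligands are made as membrane proteins, and metalloproteases such as ADAM10 and ADAM17 cut them free. Epiregulin, amphiregulin, heparin-binding EGF-like growth factor, transforming growth factor alpha and betacellulin bind the EGF receptor, and neuregulin 1 binds ErbB3 and ErbB4. ErbB2 has no known ligand of its own and pairs with the other receptors, and ErbB3 has little kinase activity and signals through its partners. In developing organs, the tooth among them, EGF family signals are known to pass between epithelium and mesenchyme and to drive cell division.

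The reads counted on genes ranged from 25890110 to 32415665 per library. Bmp2 had a count of 1 in the fx/fx library of 24 h and of 0 in the 7 others, where 3 counts in the shallowest library, its floor, are 0.116 CPM (counts scaled to a common library size), so it gave no check of the genotype labels. The Bmp2 transcript was thus at or under the floor in the fx/fx cells as well. The mesenchymal markers Vim, Col1a1 and Twist1 were abundant in every library, while Lhx8 and Barx1, which mark early dental mesenchyme, had at most 3 counts in any library. The summed level of 12 mesenchymal markers, most of it Vim, Col1a1 and Col1a2, was 7091 to 8732 CPM in the fx/fx cells and 9641 to 13041 CPM in the ko/ko cells over 6, 48 and 72 h. At each of these times Vim, Col1a1, Col1a2 and Pax9 were higher in the ko/ko cells, and Twist1, Msx1, Msx2, Lhx6 and Runx2 were lower. None of the 10 tested mesenchymal markers passed the unadjusted or the adjusted limit in edgeR. The odontoblast gene Dspp also had at most 3 counts, and the summed level of 6 odontoblast markers, most of it Alpl, was 13.7 to 65.2 CPM in the fx/fx cells and 0.908 to 1.98 CPM in the ko/ko cells. Of 12 epithelial markers, 4 (Krt5, Ambn, Amelx and Enam) had at most 3 counts, and the summed level of the 12 was 1.27 to 3.11 CPM and 1.32 to 2.85 CPM in the same libraries. The summed level was 4.25 to 14.4 CPM and 2.91 to 3.70 CPM for 6 immune markers, with Ptprc, Emr1 and Cd3e at most 3 counts in each library. It was 1.93 to 3.32 CPM and 1.61 to 3.63 CPM for 4 endothelial markers and 1.31 to 1.63 CPM and 1.65 to 3.01 CPM for 4 glial markers, with Sox10 at most 3 counts. The 2 tested markers each of epithelium (Krt14 lower and Trp63 higher in ko/ko), immune cells (Cd68 and Csf1r lower) and endothelium (Kdr lower and Tek higher) passed the unadjusted limit in edgeR, with adjusted p from 0.151 to 0.275. Of the 3 tested odontoblast markers, 2 passed the unadjusted limit and 1 the adjusted limit, which 2.22% of all genes passed. The part of such differences in cell state in the results on the EGF family was not tested.

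The library labelled ko/ko 24 h stood closer to the fx/fx library of 6 h than to any other. Over 10939 genes with at least 100 counts on average, the root mean square difference between these libraries was 0.122 on the log2 CPM scale, against 0.307 to 1.03 for the other 27 pairs of libraries. Counting error alone would give 0.0819, and 24.8% of the genes differed beyond their 95% counting limits, so the libraries were not the same counts deposited again. Over the 9 EGF family genes the difference was 0.101, against 0.449 to 2.27 for the other pairs. None of the 9 genes differed between these 2 libraries beyond counting error, whereas 7 to 9 did between the library labelled ko/ko 24 h and each of the 6 remaining libraries. For Tgfa, Btc, Nrg1, Egfr and Erbb2 its log2 CPM was nearer the fx/fx mean of 6, 48 and 72 h, and for Ereg, Areg, Hbegf and Erbb3 it was nearer the ko/ko mean. It was left out of the main comparison and is given beside it.

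**Figure D1:**
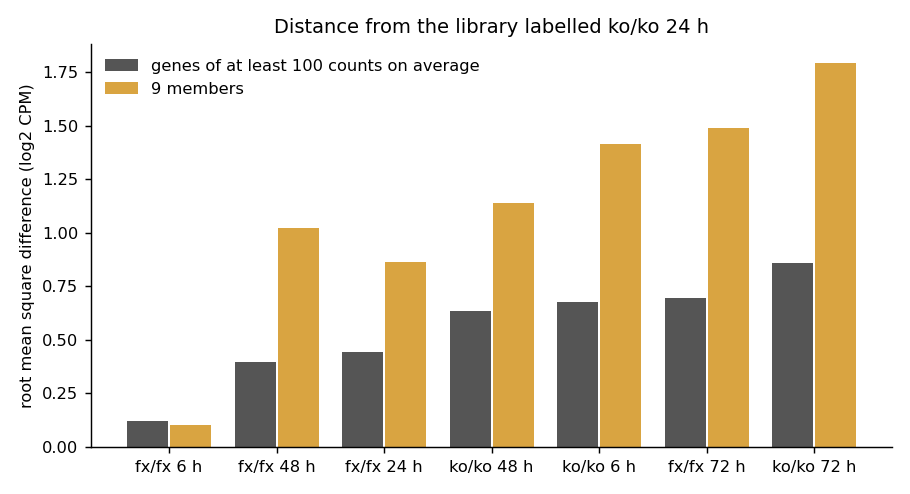
Root mean square difference in log2 CPM between the library labelled ko/ko 24 h and each of the other 7 libraries, over genes with at least 100 counts on average (grey bars) and over the 9 EGF family genes (gold bars). The bars for the fx/fx library of 6 h, at 0.122 and 0.101, are the lowest of each colour.

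Ereg, Areg and Btc lie close together on chromosome 5 of mm9. Ereg lies at chr5:91503643-91522675 on the plus strand, and Areg starts 46.0 kb beyond its end, at chr5:91568641-91577458 on the plus strand. Btc lies further along, at chr5:91786287-91831939 on the minus strand. Tgfa is at chr6:86145420-86225151 on the plus strand and Nrg1 at chr8:32928500-33119581 on the minus strand. Of the receptors, Egfr (chr11:16652206-16818161) and Erbb2 (chr11:98273784-98299030) are on the plus strand, and Erbb3 (chr10:128004579-128026708) is on the minus strand.

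RefSeq promoter sequences of 300 bases around the gene start are described for 5 of the 9 genes (Areg, Btc, Tgfa, Egfr and Erbb2). They are on build GRCm38.p6, which is not the build of the counts. The sequences of Tgfa and Btc are shown because these ligands passed the genotype test, and that of Areg because it is the neighbour of Ereg. They run 5′ to 3′ along the gene's strand, and capitals mark the motifs found among those searched on both strands. The core promoter motifs were the TATA box spelled TATAAA, the GC box spelled GGGCGG and the binding motif of NF-Y spelled CCAAT. The others were the AP-1 site spelled TGANTCA, the cAMP response element spelled TGACGTCA and the motif spelled GGCGCC of Smad1 and Smad5, which carry BMP signals.
Tgfa, chr6:86194972-86195271, plus strand: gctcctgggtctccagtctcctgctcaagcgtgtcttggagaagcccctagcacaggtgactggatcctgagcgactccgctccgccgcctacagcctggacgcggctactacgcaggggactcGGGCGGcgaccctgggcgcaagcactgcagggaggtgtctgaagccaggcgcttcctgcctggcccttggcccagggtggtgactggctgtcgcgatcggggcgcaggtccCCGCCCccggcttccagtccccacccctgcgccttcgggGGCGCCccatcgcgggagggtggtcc
Btc, chr5:91402945-91403244, minus strand: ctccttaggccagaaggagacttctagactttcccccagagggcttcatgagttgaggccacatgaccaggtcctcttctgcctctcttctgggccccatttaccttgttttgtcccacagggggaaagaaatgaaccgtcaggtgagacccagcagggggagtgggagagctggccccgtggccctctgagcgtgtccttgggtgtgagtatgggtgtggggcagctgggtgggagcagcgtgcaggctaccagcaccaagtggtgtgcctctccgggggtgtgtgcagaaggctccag
Areg, chr5:91139349-91139648, plus strand: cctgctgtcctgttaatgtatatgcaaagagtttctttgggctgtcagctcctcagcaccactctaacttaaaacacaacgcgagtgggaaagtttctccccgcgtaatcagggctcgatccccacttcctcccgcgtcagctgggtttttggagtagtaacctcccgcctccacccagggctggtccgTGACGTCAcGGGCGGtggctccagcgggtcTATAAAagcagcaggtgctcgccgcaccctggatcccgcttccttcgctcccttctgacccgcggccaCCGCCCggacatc

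The Tgfa window held GC boxes at -126 and -15 and the Smad1/5 motif at +24, counted from the start of the gene. The Areg window held a cAMP response element at -61, GC boxes at -52 and +37 and a TATA box at -31. None of the searched letters was in the Btc window, a GC box stood at -9 of Egfr and a CCAAT box at -41 of Erbb2. Over 32851 mouse promoters of this length, the TATA box was in 13.6%, the GC box in 35.7%, CCAAT in 37.4%, the AP-1 site in 7.81%, the cAMP response element in 1.79% and the Smad1/5 motif in 11.9%. A match of these letters is a description of the window only.

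Tgfa and Btc, ligands of the EGF receptor, were lower in the ko/ko cells. Tgfa had 5.96, 5.33 and 3.33 CPM at 6, 48 and 72 h in the fx/fx cells, from 190, 172 and 102 reads. In the ko/ko cells it had 0.720, 1.23 and 0.537 CPM, from 22, 38 and 13 reads. Every ko/ko library of these times lay under every fx/fx library. The fitted level was 5.81-fold lower in the ko/ko cells, a log2 fold change of -2.54 ± 0.44 (SE, n = 3 libraries per genotype), with an adjusted p of 0.0335 by the quasi-likelihood test of edgeR, adjusted over all genes after Benjamini and Hochberg. The library labelled ko/ko 24 h had 5.85 CPM, above the 4.51 CPM of the fx/fx library of 24 h, and with both of them included the edgeR log2 fold change was -1.20 ± 0.69 and the adjusted p 0.549.

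Btc had 4.39, 13.4 and 8.24 CPM at 6, 48 and 72 h in the fx/fx cells, and 1.08, 1.62 and 0.702 CPM in the ko/ko cells, the lowest from 17 reads. The groups did not overlap at these times, and the gap was widest at 72 h, where the ko/ko library was 11.7-fold lower. The fitted level was 7.56-fold lower, a log2 fold change of -2.92 ± 0.52 (SE, n = 3 libraries per genotype; edgeR, adjusted p = 0.0385). At 24 h the fx/fx library had 6.96 CPM and the library labelled ko/ko 24 h had 4.54 CPM, and over all 8 libraries the edgeR log2 fold change was -2.05 ± 0.59, past the unadjusted limit, with an adjusted p of 0.483.

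These 2 ligands were the only members of the 9 past the limit of a log2 fold change beyond 1 with an unadjusted p under 0.05, and the only ones with an adjusted p of at most 0.05. Over all 13121 genes tested by edgeR, 4.04% were lower and 3.31% higher in the ko/ko cells at the unadjusted limit, and 1.30% were lower at the adjusted limit, or 2.22% in either direction. Groups that did not overlap were found for 2 of the 9 genes, Tgfa and Btc, and for 20.0% of all genes, so that count is close to the background by its share. Without a library in turn, the log2 fold change was -2.32 to -2.95 for Tgfa and -2.48 to -3.28 for Btc, past the unadjusted limit each time, while the adjusted limit was often missed. The edgeR adjusted p of Tgfa lay between 0.0917 and 0.164 without the fx/fx or ko/ko library of 6 h or of 48 h, and stayed at 0.0467 and 0.0451 without either 72 h library. That of Btc was 0.0474 without the fx/fx library of 6 h, and between 0.0520 and 0.161 without any of the other 5.

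Ereg, which encodes a ligand of the EGF receptor and of ErbB4, had 16.5, 57.3, 70.8 and 118 CPM at 6, 24, 48 and 72 h in the fx/fx cells, from 526, 1615, 2286 and 3620 reads. In the ko/ko cells it had 6.58, 21.6 and 45.3 CPM at 6, 48 and 72 h, from 201, 667 and 1097 reads, and the library labelled ko/ko 24 h had 17.3 CPM from 460 reads. At each time the ko/ko level was the lower, by 2.51-fold at 6 h, 3.28-fold at 48 h and 2.61-fold at 72 h, yet the ranges over time overlapped because both lines covered a wide range. The counting limits (95%) of the log2 ratio were -1.56 to -1.09 at 6 h, -1.84 to -1.59 at 48 h and -1.48 to -1.29 at 72 h, which cover counting error only.

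Whether the genotype difference in Ereg passed a test depended on the fit and on the libraries. With genotype alone in the fit, the log2 fold change was -1.52 ± 0.82 (SE, n = 3 libraries per genotype; edgeR, adjusted p = 0.481). It was -0.85 without the fx/fx library of 72 h and -1.04 without the ko/ko library of 6 h. It was -1.99 without the fx/fx library of 6 h and -2.29 without the ko/ko library of 72 h, past the unadjusted limit in both. It also passed that limit over all 8 libraries (edgeR, adjusted p = 0.483) and in DESeq2 (adjusted p = 0.296). With culture time as a block, which compares the genotypes within each time, it was -1.49 ± 0.13 (edgeR, adjusted p = 0.00047). Because Ereg was chosen for a similar course over time in both genotypes, the small spread left by the block draws on the values that chose it, and the blocked p is given as no independent support. Over all 8 libraries with the block it was -1.54 ± 0.12 (edgeR, adjusted p = 0.0427), which is no independent support for the same reason. Ereg was then the single called member of the 9, where 0.306% of all genes were called, and this too draws on the values that chose it. That fit includes the library labelled ko/ko 24 h, whose 17.3 CPM lay beside the 16.5 CPM of the fx/fx library of 6 h, so genotype and culture time cannot be told apart in its 24 h pair.

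With culture time as a block over the 6 libraries, 7 of the 9 genes had an edgeR adjusted p of at most 0.05, where 22.7% of all genes did. Ereg is among the 7, though its blocked p draws on the values that chose it. The ligands Ereg, Areg, Hbegf, Tgfa and Btc were lower in the ko/ko cells, and the ligand Nrg1 and the receptor Egfr were higher. Without a test, 8 of the 9 genes kept a single direction between the genotypes at 6, 48 and 72 h, and 57.6% of all genes did. These were the same 7 genes and Erbb2.

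**Figure D2:**
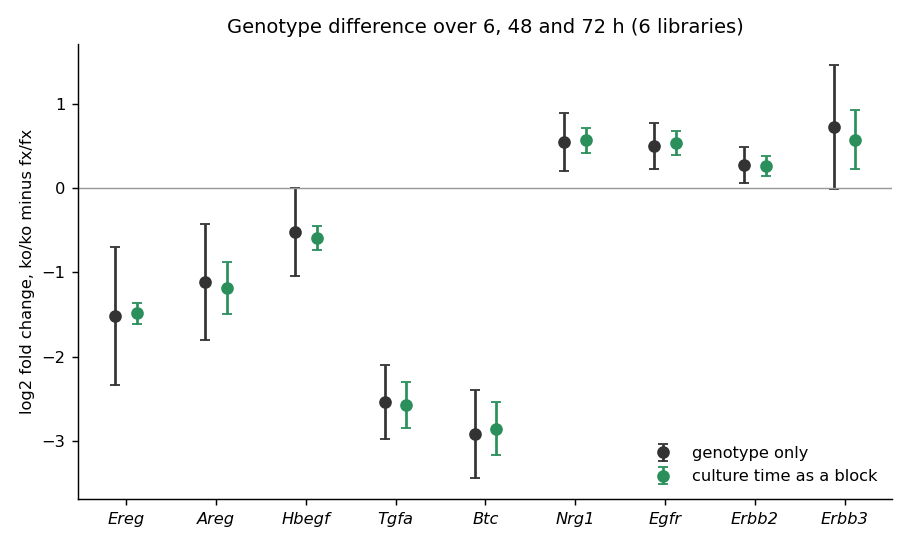
Log2 fold change (ko/ko minus fx/fx) of the 9 genes over the 6 libraries of 6, 48 and 72 h, with genotype alone in the edgeR fit (black) and with culture time as a block (green). Points are estimates and bars are 1 standard error. The values for Ereg are -1.52 ± 0.82 and -1.49 ± 0.13, and those of Tgfa and Btc lie lowest in both fits.

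Areg, the neighbour of Ereg and like it a ligand of the EGF receptor, was much less abundant. It had 0.596, 0.781, 1.36 and 1.99 CPM at 6, 24, 48 and 72 h in the fx/fx cells, from 19 to 61 reads, and 0.196, 0.519 and 1.16 CPM at 6, 48 and 72 h in the ko/ko cells, from 6 to 28 reads. The ko/ko level was the lower at each of the 3 times, and the ranges overlapped. The log2 fold change was -1.12 ± 0.69 (edgeR, adjusted p = 0.544), and ranged from -0.66 without the ko/ko library of 6 h to -1.87, past the unadjusted limit, without that of 72 h. It was -1.19 ± 0.31 with the block (edgeR, adjusted p = 0.0317), which was lost with the block over 8 libraries (edgeR, adjusted p = 0.146). The library labelled ko/ko 24 h had 0.638 CPM, from 17 reads.

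Hbegf, which binds the EGF receptor and ErbB4, had 16.8, 18.1, 18.2 and 39.2 CPM at 6, 24, 48 and 72 h in the fx/fx cells. In the ko/ko cells it had 10.7, 10.3 and 31.7 CPM at 6, 48 and 72 h, and the library labelled ko/ko 24 h had 16.5 CPM. In the fx/fx cells the level was near its starting value at 24 and 48 h, and in the ko/ko cells at 48 h. The library labelled ko/ko 24 h was 1.54-fold above the ko/ko library of 6 h. In both lines the level was highest at 72 h. The genotypes overlapped, with a log2 fold change of -0.52 ± 0.52 (edgeR, adjusted p = 0.742), which was -0.00050 without the fx/fx library of 72 h and -1.24, past the unadjusted limit, without that of ko/ko. It was -0.59 ± 0.14 with the block (edgeR, adjusted p = 0.0223), and -0.47 ± 0.15 with the block over 8 libraries (edgeR, adjusted p = 0.137).

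Nrg1, the neuregulin that binds ErbB3, and Egfr, the receptor of the other 5 ligands, were the members on the other side. Nrg1 had 10.1, 20.7, 16.7 and 21.0 CPM at 6, 24, 48 and 72 h in the fx/fx cells and 15.4, 28.1 and 27.0 CPM at 6, 48 and 72 h in the ko/ko cells. Its log2 fold change was 0.55 ± 0.34 (edgeR, adjusted p = 0.556), and 0.57 ± 0.15 with the block (edgeR, adjusted p = 0.0303). Egfr had 18.7, 34.5, 27.8 and 35.5 CPM at 6, 24, 48 and 72 h in the fx/fx cells and 30.7, 42.7 and 43.6 CPM at 6, 48 and 72 h in the ko/ko cells. Its log2 fold change was 0.50 ± 0.28 (edgeR, adjusted p = 0.487), and 0.54 ± 0.14 with the block (edgeR, adjusted p = 0.0320). The ko/ko levels of both genes were the higher at each of these 3 times. Without the fx/fx library of 6 h, the log2 fold change was 0.29 for Nrg1 and 0.27 for Egfr. With the block over 8 libraries it was 0.18 for Nrg1 and 0.19 for Egfr (edgeR, adjusted p = 0.753 and 0.690). The library labelled ko/ko 24 h had 9.76 CPM of Nrg1 and 18.4 CPM of Egfr, below the fx/fx library of 24 h for both.

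The receptors that pair with EGFR differed less or less evenly. Erbb2 had 54.1, 41.5, 43.9 and 41.9 CPM at 6, 24, 48 and 72 h in the fx/fx cells, and 67.6, 55.5 and 46.4 CPM at 6, 48 and 72 h in the ko/ko cells. Its log2 fold change was 0.28 ± 0.22 (edgeR, adjusted p = 0.655), with an adjusted p of 0.134 under the block, and was 0.13 without the ko/ko library of 6 h. Erbb3 had 5.99, 3.51, 3.75 and 1.5 CPM in the fx/fx cells, and 5.56, 11.2 and 1.65 CPM in the ko/ko cells at 6, 48 and 72 h. Of these times, its genotypes differed beyond counting error at 48 h only, where the ko/ko library was 3.0-fold higher. The log2 fold change of Erbb3, 0.73 ± 0.74 (edgeR, adjusted p = 0.743), became -0.04 without the ko/ko library of 48 h. In the library labelled ko/ko 24 h, Erbb2 had 50.7 CPM, and Erbb3 had 7.17 CPM, 2.04-fold above the fx/fx library of 24 h.

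**Figure D3:**
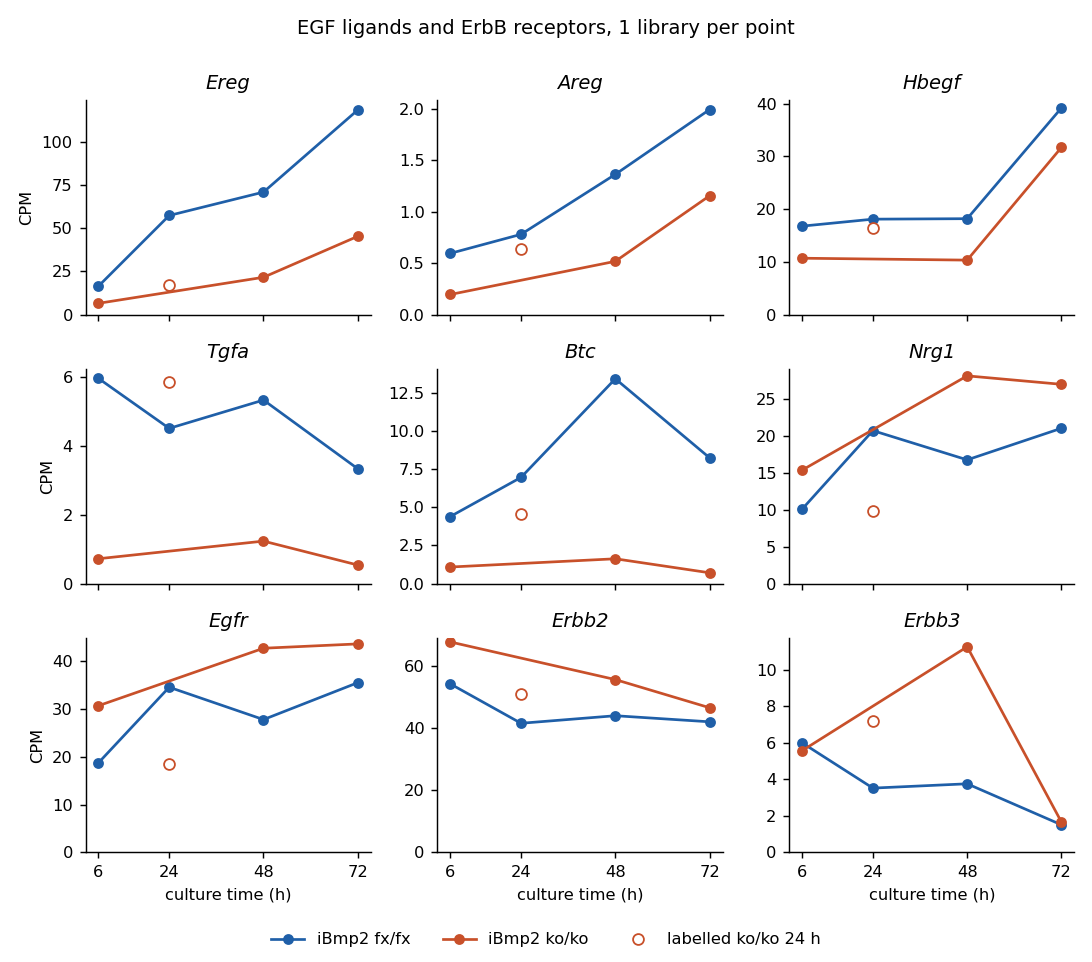
CPM of the 9 genes against culture time in hours, each panel on its own linear scale from 0, with 1 library per point. Blue points are fx/fx, filled orange points are ko/ko, and the open orange circle is the library labelled ko/ko 24 h, which is not joined to the others. Ereg goes from 16.5 to 118 CPM in fx/fx and from 6.58 to 45.3 CPM in ko/ko.

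Along culture time, Ereg was 7.17-fold higher at 72 h than at 6 h in the fx/fx cells and 6.88-fold higher in the ko/ko cells. This contrast chose the gene and is given as a description. Ereg was the only member whose CPM was higher at each successive time in both lines, the library labelled ko/ko 24 h included, as it was for 94 of 13042 genes. Areg was also higher at each time in the fx/fx cells and over 6, 48 and 72 h in the ko/ko cells, and the library labelled ko/ko 24 h alone, with 0.638 CPM, broke its order. Of those 13042 genes, 12, Ereg among them, had at least as large a ratio of 72 h to 6 h as Ereg in both lines.

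Areg was 3.35-fold higher at 72 h than at 6 h in the fx/fx cells and 5.89-fold higher in the ko/ko cells, and Hbegf was 2.34-fold and 2.96-fold higher. Ereg, Areg and Hbegf were thus the 3 of 9 members more than 2-fold higher at 72 h in both lines, and 4.16% of all genes were. The place of Ereg in this count was fixed by its choice, so the count is a description only. With 48 h in place of 72 h the count was 2, Ereg and Areg. Erbb3 went the other way, 3.99-fold lower at 72 h than at 6 h in the fx/fx cells and 3.37-fold lower in the ko/ko cells. It was the single member more than 2-fold lower in both lines, as were 991 of the 13042 genes. With 48 h in place of 72 h, the log2 ratio of Erbb3 was 1.01 in the ko/ko cells, so its lower level there was seen at 72 h alone.

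The other members had smaller or unlike courses. Nrg1 was 2.09-fold higher at 72 h than at 6 h in the fx/fx cells and 1.76-fold higher in the ko/ko cells, and Egfr was 1.90-fold and 1.42-fold higher. Erbb2 was 1.29-fold and 1.46-fold lower. Btc was 1.88-fold higher at 72 h in the fx/fx cells, with its highest level at 48 h, and 1.54-fold lower in the ko/ko cells, where counting error includes no change. Tgfa was 1.79-fold lower in the fx/fx cells and 1.34-fold lower in the ko/ko cells, where counting error again includes no change.

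Levels of different genes were compared as CPM per kilobase of exon (RPKM). In the fx/fx cells, the mean RPKM over 6, 48 and 72 h was 16.6 ± 12.3 for Ereg, 10.4 ± 5.29 for Hbegf and 8.95 ± 1.26 for Erbb2 (SD, n = 3). Next came Nrg1 at 4.95 ± 1.71, Btc at 3.11 ± 1.62 and Egfr at 2.41 ± 0.741, and then Tgfa at 1.30 ± 0.364, Areg at 1.10 ± 0.584 and Erbb3 at 0.623 ± 0.373. Between neighbours in this order, the ranges of Erbb2 and Nrg1 and of Egfr and Tgfa did not overlap, and the others did. Ereg had so wide a range, 3.99 to 28.6 RPKM, that it also overlapped Nrg1 and Btc. With the longest transcript as the length, Nrg1 reached 7.58 RPKM and overlapped Erbb2.

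In the ko/ko cells, Erbb2 was first in the order at 10.8 ± 2.04 RPKM, followed by Hbegf at 7.41 ± 5.15, Nrg1 at 7.29 ± 2.19, Ereg at 5.92 ± 4.72 and Egfr at 3.44 ± 0.637 (SD, n = 3), each overlapping the next. The 4 others, Erbb3 at 1.02 ± 0.802, Areg at 0.520 ± 0.407, Btc at 0.406 ± 0.165 and Tgfa at 0.221 ± 0.0958, lay below Egfr and overlapped in the same way. With the longest transcript as the length, Nrg1 was at 11.2 RPKM, second to Erbb2 at 11.3 RPKM and above Hbegf. The order also changed with time, as at 72 h in the ko/ko cells Hbegf (13.4 RPKM) and Ereg (10.9 RPKM) stood above Erbb2 (8.91 RPKM), and at 6 h in the fx/fx cells Erbb2 (10.4 RPKM) and Hbegf (7.07 RPKM) stood above Ereg (3.99 RPKM). By these means, Btc had rank 5 in the fx/fx cells and rank 8 in the ko/ko cells.

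Ereg made up a growing share of the summed RPKM of the 6 ligands, with 22.4%, 43.0%, 45.9% and 50.1% at the 4 times in the fx/fx cells. The share was 13.7%, 26.6% and 32.2% at 6, 48 and 72 h in the ko/ko cells, and 23.4% in the library labelled ko/ko 24 h. Over the same times the summed RPKM of the 3 receptors changed less, from 13.0 to 11.4 in the fx/fx cells and from 16.6 to 13.0 in the ko/ko cells between 6 and 72 h.

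**Figure D4:**
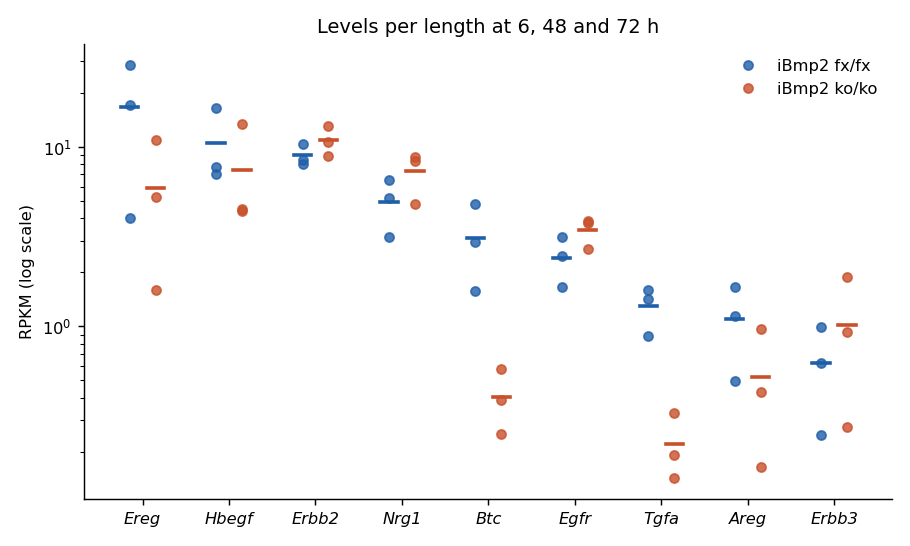
RPKM on a log scale of the 9 genes in the libraries of 6, 48 and 72 h, with fx/fx in blue and ko/ko in orange. Points are libraries and lines are means of 3. The ko/ko points of Btc and Tgfa all lie under their fx/fx points, and the other 7 genes overlap.

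The genes whose pattern over the 8 libraries was most like that of Ereg were Vcan, Cyr61, Ppap2b, 6530418L21Rik and Nav3, by the root mean square difference of centred log2 CPM among 10938 genes. This distance was 0.232 for Vcan, which encodes the matrix proteoglycan versican, 0.341 for Cyr61, a secreted matrix-associated protein, 0.360 for Ppap2b, 0.380 for 6530418L21Rik and 0.399 for Nav3. Vcan had 97.3, 368, 406 and 684 CPM at 6, 24, 48 and 72 h in the fx/fx cells and 51.6, 138 and 418 CPM at 6, 48 and 72 h in the ko/ko cells. Among the members, Hbegf ranked nearest to Ereg, at place 404, and Areg had too few reads to be ranked. Without the library labelled ko/ko 24 h, 3 of these 5 genes (Vcan, Cyr61 and Ppap2b) were again among the nearest 5.

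The remaining genes of the family were low. Egf (22 to 51 reads per library), Nrg2 (33 to 75 reads) and Nrg4 (13 to 35 reads) were tested and not called by edgeR with or without the block or by DESeq2, and none had an unadjusted p under 0.05. Their edgeR log2 fold changes were -0.45 ± 0.38, 0.60 ± 0.35 and -0.39 ± 0.41. Epgn had at most 5 reads, Erbb4 at most 1 and Nrg3 had 0 in each library, so of the 4 receptors of the family, Erbb4 was at or under the floor of 3 counts throughout.

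Genes for the release of ligands, for the restraint of receptor signals, for the adaptors and kinases that carry the signal and for genes known to be induced by ERK were listed as the wider pathway. Of 11 tested genes of ligand release, 1 was called at the unadjusted limit, where 4.04% of all genes were lower and 3.31% higher. Adam8, a metalloprotease, was lower in the ko/ko cells, with 11.5 ± 2.47 against 4.85 ± 1.22 CPM (SD, n = 3) and a log2 fold change of -1.26 ± 0.30 (edgeR, adjusted p = 0.0992). At 24 h it had 8.38 CPM in fx/fx and 9.19 CPM in the library labelled ko/ko 24 h. The median log2 fold change of the list was -0.22, against 0.03 for all genes. With the block, 5 genes were lower and 1 higher at an edgeR adjusted p of at most 0.05, where 22.7% of all genes were called. The lower ones were Adam8, Adam10, Adam12, Adam17 and Adam19, and the higher one was Rhbdf1, which helps ADAM17 to mature, all but Adam8 named after their values were seen.

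Of 19 genes that restrain receptor or ERK signals, Spry1, a Sprouty inhibitor, was higher in the ko/ko cells. Its level was 2.70 ± 0.964 CPM in the fx/fx cells and 11.7 ± 3.52 CPM in the ko/ko cells (SD, n = 3). The log2 fold change was 2.11 ± 0.39 (edgeR, adjusted p = 0.0428). The 24 h libraries had 3.90 CPM in fx/fx and 1.46 CPM in the library labelled ko/ko 24 h. The list's median was -0.32, and with the block 4 genes were lower and 2 higher, beside the 22.7% called of all genes. Spry2, of the same family, was among the lower ones, with a blocked log2 fold change of -0.90 ± 0.12 (edgeR, adjusted p = 0.00285), and was named after its value was seen. Spry1 was the single pathway gene past the adjusted limit in edgeR, which 2.22% of all genes passed in either direction, while DESeq2 called 6 pathway genes. In edgeR no pathway gene passed it when any library but that of ko/ko at 72 h was left out.

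None of the 23 tested adaptors and kinases was called by edgeR at either limit, and the list's median was -0.09. In edgeR 3 had an unadjusted p under 0.05, and DESeq2 called 1 at the adjusted limit. The share of all genes was not worked out for these last counts, so they are not compared with it. With the block, 5 were lower and 1 higher, which is close to the 22.7% of all genes. Of the 19 tested genes that ERK induces, 3 were called at the unadjusted limit, each of them lower in the ko/ko cells, as were 4.04% of all genes, and their list had a median of -0.45. Fos had 14.4 ± 2.35 against 6.75 ± 1.13 CPM, a log2 fold change of -1.09 ± 0.25 (edgeR, adjusted p = 0.0908). Junb, which like Fos encodes a subunit of the transcription factor AP-1, had 312 ± 69.7 against 143 ± 71.1 CPM (-1.14 ± 0.35; edgeR, adjusted p = 0.199). Ptgs2, the inducible prostaglandin synthase, had 193 ± 97.7 against 51.1 ± 43.7 CPM (SD, n = 3), with a log2 fold change of -1.95 ± 0.70 (edgeR, adjusted p = 0.268). At 24 h the fx/fx library and the library labelled ko/ko 24 h had 11.0 and 13.1 CPM of Fos, 219 and 247 CPM of Junb and 194 and 98.9 CPM of Ptgs2, so that Fos and Junb stood the other way round there. With the block, where 22.7% of all genes were called, 9 genes of this list were lower and 1 higher, Ccnd1, which encodes cyclin D1, with a log2 fold change of 0.97 ± 0.12 (edgeR, adjusted p = 0.00181). Ccnd1 was named after its value was seen. At 24 h Ccnd1 stood the other way, with 211 CPM in fx/fx and 41.5 CPM in the library labelled ko/ko 24 h, and none of the pathway genes had an edgeR adjusted p of at most 0.05 with the block over 8 libraries.

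**Figure D5:**
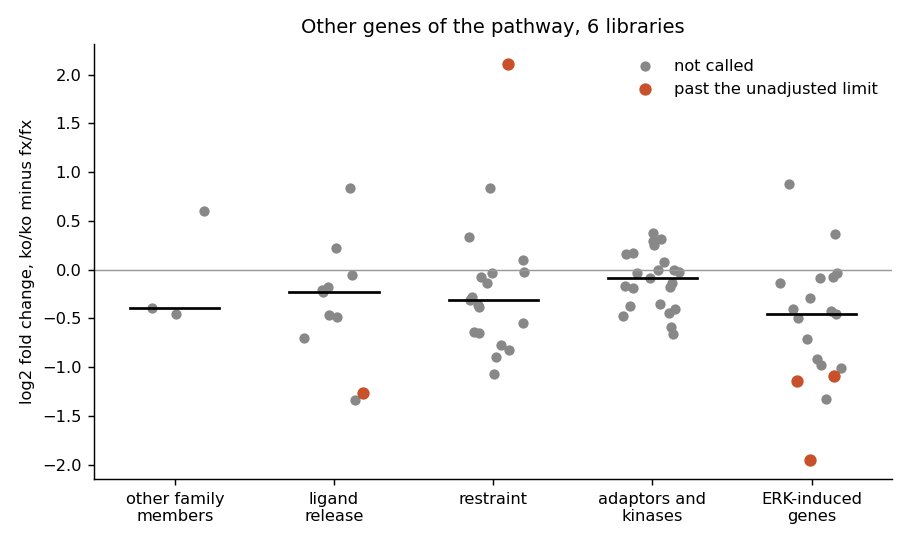
The edgeR log2 fold change (ko/ko minus fx/fx, 6 libraries, genotype alone) of each tested pathway gene, by list. Points are genes, orange marks those past the unadjusted limit and black lines are the medians, which run from -0.45 for the ERK-induced genes to -0.09 for the adaptors and kinases.

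Over culture time, 8 of 20 genes that ERK induces were more than 2-fold higher at 72 h than at 6 h in both lines, beside the 4.16% of all genes. They were Fosl1, Jun, Ier3, Myc, Etv5, Phlda1, Ccnd1 and Ptgs2. So were 6 of 19 restraint genes (Errfi1, Socs5, Cbl, Spry4, Dusp5 and Dusp6), 2 of 11 genes of the ligand release list (the metalloprotease Adam19 and Timp3, an inhibitor of such proteases) and none of the 23 adaptors and kinases. No tested gene of these lists was more than 2-fold lower in both lines. Rhbdl2, a rhomboid protease with at most 15 reads per library, did not pass the filter. These counts were made in the contrast that chose Ereg and carry no test.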

How the data were processed

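Total RNA of 8 cultures was sequenced, 4 libraries per genotype. The authors aligned the reads to mm9 with TopHat2 (2.0.8b in the submitters' processing notes, which also name CASAVA 1.8.2), counted them with HTSeq and deposited raw counts per gene symbol and library. Annotation and strand setting are not given in the sources used here, so reads of overlapping genes on opposite strands cannot be told apart. HTSeq's summary rows were left out, of which alignments at more than a single place made up 41.3% to 49.6% of each table's total.

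Counts were tested in R 4.3.3 with edgeR 4.0.16 (TMM, filter of 10 counts and 15 in total, quasi-likelihood test, Benjamini-Hochberg adjustment) over 3 libraries per genotype at 6, 48 and 72 h. CPM used TMM library sizes, and RPKM the exonic bases of GENCODE release M1 on mm9, which matched 95.7% of symbols. A gene was called where the size of its log2 fold change was over 1 at an unadjusted p below 0.05, the study's limit, and separately at an adjusted p of at most 0.05. Libraries of a shared culture time deviated together from their genotype means (correlations of 0.713, 0.536 and 0.84 at 6, 48 and 72 h), and the labels give the culture time, so fits with time as a block are given too. Nothing in the labels says that libraries are separate cultures beyond their time, and p-values measure the spread between these libraries. Counting intervals are 95% and cover counting error only, as does the floor of 3 counts.

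The alternatives were all 8 libraries, the block over 6 and 8 libraries, library size alone, DESeq2 1.42.0, limma 3.58.1 on log2 of RPKM plus 0.1, both no filter and a minimum of 10 counts per library, and leaving out each library. A fit of 7 libraries, without the library labelled ko/ko 24 h, was added after seeing the data. The member genes and pathway lists were chosen with earlier results of these data known. Named genes were the members, the rest of the family, called genes of each pathway list, the 5 genes most like Ereg, Bmp2 and defining markers, and a few more are marked in the text. The pathway genes listed over culture time were also named after their values were seen. Figures were made with Python 3.11.15 and matplotlib 3.10.9. The tables of lncRNA counts were not used here.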

Additional observations from a re-analysis of the deposited data

Results flagged for a closer look

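Hbegf in the fx/fx library of 72 h, at 39.2 CPM, lay far from the other 3 fx/fx libraries. On the log2 CPM scale, its gap to the nearest of them was 0.905 of the group's range, above Dixon's 95% limit for 4 samples. Of 18 groups looked at (9 genes in 2 genotypes) this was the single such sample, and among true replicates chance alone passes the limit in about 1 in 20 groups. The 4 libraries of a group are 4 culture times and not replicates, so this gap cannot be told apart from a change with culture time.

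At 24 h the difference between the genotypes had the opposite sign of that at 6, 48 and 72 h for 3 members, and the change of sign was not tested. The log2 ratio of ko/ko over fx/fx at 24 h was 0.377 for Tgfa, -1.085 for Nrg1 and -0.909 for Egfr. Each rests on the library labelled ko/ko 24 h, in which none of the 9 genes differed beyond counting error from the fx/fx library of 6 h.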

How the results depend on the processing

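Of the 80 edgeR, DESeq2 and limma fold changes of single members under alternatives other than leaving out a library, 69 kept direction and side of the adjusted limit, 5 lost the call, 6 gained it and none reversed. Leaving out a library in turn (54 values) kept 44, lost 9 and reversed 1, Erbb3, which ranged from -0.045 (without the ko/ko library of 48 h) to 1.22. The 2 members called at the adjusted limit became 0 over all 8 libraries, 7 with culture time as a block over 6 libraries, 1 with it over 8, 1 with at least 10 counts in every library (Tgfa kept, Btc lost at an adjusted p of 0.0565) and 0 to 1 without a library. At the unadjusted limit the 2 members became 4 with the block, Ereg and Areg added, 3 with it over 8 libraries and 3 in DESeq2, Ereg added in both, and 2 to 5 without a library. Over all 8 libraries they were 2, with Ereg in place of Tgfa. The 5 pathway genes called at the unadjusted limit became 11 with the block, 8 without a filter, 8 over 7 libraries and 3 to 15 without a library, 3 being without ko/ko at 48 h and 15 without it at 72 h. The 1 at the adjusted limit became 0 over all 8 libraries, 28 and 0 with the block over 6 and 8, 6 in DESeq2, 0 with at least 10 counts in every library, 3 over 7 libraries and 0 to 5 without a library. The share of all genes at the adjusted limit also moved, from 2.22% in the main fit to 22.7% and 0.306% with the block over 6 and 8 libraries. It is not given here for the other alternatives, so these changes in counts are not read as particular to these genes. With 48 h in place of 72 h, the log2 ratio to 6 h in ko/ko cells changed sign for Hbegf (-0.0493), Erbb3 (1.01), Tgfa (0.72) and Btc (0.56). Of the 5 genes most like Ereg, 3 stayed without the library labelled ko/ko 24 h. The cause of these changes was not tested beyond the fewer libraries or genes they use. Depth limits Areg most, with 6 to 61 reads per library, and it could not be fitted with at least 10 counts in every library.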
